A study of Mus musculus with 6 samples.

Results

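The transcripts described are the variable (V), diversity (D) and joining (J) segments of the immunoglobulin heavy chain, taken as every row of the deposited gene table whose symbol begins with Ighv, Ighd or Ighj followed by a digit. There were 104 such rows among 22475, made up of 99 V segments of 15 families, 1 D segment and 4 J segments. RNA had been sequenced from Lin-, cKit+, Sca1+ cells, a sort from mouse marrow that enriches stem cells and early progenitors. All mice, controls included, carried 2 copies of FLT3-ITD, a tandem duplication within the receptor kinase FLT3. The control group (FLT3-ITD) had wild type miR-155, whereas the second group, FLT3-ITD miR-155 KO (KO for short), had a homozygous deletion of this microRNA. Each group had 3 libraries and each library pooled RNA of 3 mice, so every test below measures the spread between pools and not between animals. The sources used here give no age, sex or strain background.

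The heavy chain locus is cut and rejoined in developing B cells, which bring 1 V, 1 D and 1 J segment together into the exon for the variable domain. That exon is spliced to a constant region gene such as Ighm (IgM), Igha (IgA) or the Ighg genes (IgG), and plasma cells make the resulting RNA in very large amounts. Among the V families, V11 and V12 are known from B1 cells, a self-renewing B lineage that secretes natural IgM, where receptors built from either family bind phosphatidylcholine and are mostly joined to Ighj1. Most V segments of family V1 lie at the far end of the locus from the J segments.

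The 4 J segments and the D segment show the kind of sequence counted here. Capitals mark in each J segment the tryptophan-glycine motif, searched on the coding strand, which encodes the conserved tryptophan and glycines at the start of the last framework region. Sequences are those of GENCODE M21 transcripts, 5′ to 3′ on the coding strand of chromosome 12 (GRCm38, the assembly of mm10). The segments lie at chr12:113429781-113429833 (Ighj1), chr12:113429468-113429567 (the gene record of Ighj2), chr12:113429085-113429132 (Ighj3), chr12:113428514-113428567 (Ighj4) and chr12:113482170-113482192 (Ighd1-1), all on the minus strand.
Ighj1: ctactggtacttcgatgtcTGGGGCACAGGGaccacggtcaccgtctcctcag
Ighj2: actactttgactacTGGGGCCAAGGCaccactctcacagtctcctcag
Ighj3: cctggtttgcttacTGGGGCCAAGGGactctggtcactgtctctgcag
Ighj4: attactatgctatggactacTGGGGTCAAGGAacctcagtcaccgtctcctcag
Ighd1-1: tttattactacggtagtagctac

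Ighv11-2 and Ighv11-1, the 2 members of family V11, are shown because the results turn on the first of them and the pair is nearly identical. Their coding sequences have 353 bases each and differ at 4 positions, G83A, A95C, A258C and G321T, counted from 1 at the first base of the coding sequence with the base of Ighv11-2 first. Of all windows of 50 bases in Ighv11-2, 52.3% also occur in another heavy V segment. A read confined to such a window cannot be told apart by sequence, while a longer one may reach a differing base. Bases 78 to 326 are printed with the differing bases in capitals. The genes lie at chr12:114048241-114048812 (Ighv11-2) and chr12:113981879-113982341 (Ighv11-1), minus strand.
Ighv11-2: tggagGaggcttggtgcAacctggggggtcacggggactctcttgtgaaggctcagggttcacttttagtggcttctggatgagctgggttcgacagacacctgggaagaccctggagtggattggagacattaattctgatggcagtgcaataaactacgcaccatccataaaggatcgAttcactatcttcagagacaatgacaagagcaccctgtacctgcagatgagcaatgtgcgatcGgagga
Ighv11-1: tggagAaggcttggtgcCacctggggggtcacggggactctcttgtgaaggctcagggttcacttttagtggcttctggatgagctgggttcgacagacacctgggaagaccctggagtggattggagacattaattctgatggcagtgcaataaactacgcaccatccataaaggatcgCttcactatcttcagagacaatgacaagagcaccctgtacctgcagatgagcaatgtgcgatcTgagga

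The last 90 coding bases are given for 3 other segments of interest: Ighv12-3 of the second family named above, Ighv9-3, whose groups overlapped, and Ighv14-3, which fell. Capitals mark the codon of the conserved cysteine before the junction, the last TGT in each. The genes lie at chr12:114366521-114366954, chr12:114140692-114141122 and chr12:114059845-114060321, minus strand.
Ighv12-3: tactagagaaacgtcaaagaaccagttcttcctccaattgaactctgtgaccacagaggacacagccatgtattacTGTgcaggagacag
Ighv9-3: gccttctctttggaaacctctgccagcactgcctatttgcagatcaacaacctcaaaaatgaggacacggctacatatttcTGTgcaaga
Ighv14-3: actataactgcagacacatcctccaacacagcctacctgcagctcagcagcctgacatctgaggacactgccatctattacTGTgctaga

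Library totals lay between 6843129 and 9443615 counts, and a count of 0 allowed up to 3 counts, or 0.318 to 0.438 CPM (counts scaled to equal library totals). Of the genes of the sorting gate, Kit lay between 231 and 393 CPM and Ly6a (Sca1) between 106 and 127 CPM in the 6 libraries. The summed CPM of 10 markers of mature B cells lay between 57.5 and 89.2 in the control and between 40.8 and 59.5 in the KO libraries, with overlap, and of the 5 tested 0 passed with or without a replicate block. Levels differed among them: Cd79b, a receptor signalling chain, had 149 to 398 counts per library, whereas the B lineage factor Pax5 had 1 count in all. The summed CPM of 9 plasma cell markers lay between 3207 and 4575 in the control and between 769 and 1852 in the KO libraries. Most of this sum was Igj, itself an antibody chain gene and not a J segment. It had 2694 to 3922 CPM in the control and 474 to 1422 in the KO. Of these 9 markers 8 had a negative log2 fold change, and Slamf7 had 0.12. By the test described next 0 passed, and 6 fell with a replicate block, where 1.04% of all genes fell. The defining plasma cell gene Sdc1 had 31.0 to 57.5 CPM in the control and 8.68 to 27.8 in the KO. All 8 markers of mature neutrophils also had a negative log2 fold change (median -0.74, 0 past the test with or without the block), and their summed CPM lay between 598 and 718 in the control and between 334 and 520 in the KO. In summed CPM, plasma cell and neutrophil markers were thus lower in the KO group, as were the segments below, and their part in the results was not tested. Negative log2 fold changes were also common in other lists, with 9 of 10 tested markers of T and NK cells and 8 of 9 of the sorting gate. Of 3 tested markers of pro-B and pre-B cells 1 was negative. In these 3 lists 0 passed with or without the block, and the summed CPM of the groups overlapped. Within the KO, replicate 2 was the lowest for heavy V and plasma cell markers but the highest for neutrophil markers. In these bulk samples fewer cells of a type and less RNA per cell cannot be told apart.

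Heavy V transcripts were lower in the KO. Summed over the 99 segments they took 2836 CPM in control replicate 1, 2008 in replicate 2 and 3328 in replicate 3, against 627, 368 and 1292 CPM in the KO. All values below are in this order of replicates. The groups did not overlap, and within the KO group replicate 3 was the highest. The means were 2724 ± 667 and 763 ± 477 CPM (SD, n = 3), a ratio of 3.57. A mean CPM lower in the KO was found for 99 of the 104 segments.

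In the fit over all 13217 genes tested (edgeR's quasi-likelihood test, Benjamini-Hochberg adjusted p under 0.05), 6 segments fell and 0 rose. Of all genes tested, 0.144% were lower and 0.0151% higher by this rule. The 6 were Ighv14-3, Ighv9-2, Ighv1-64, Ighv1-5 and Ighv1-58 and the joining segment Ighj4. The replicate number was also used as a block, since libraries of equal number deviated together across all genes, though hardly across the heavy segments alone. With it 46 segments fell and 0 rose, against 1.04% of all genes lower and 0.318% higher by that rule. The 46 included all 6. DESeq2 called 52 lower and 0 higher, where it called 0.794% of all genes lower and 0.0516% higher. Without control replicate 1 or control replicate 3 the count was 0 in edgeR, but then 0 of all genes tested were called lower. The median log2 fold change of the segments tested was -2.64 and -2.61 in these fits. Without KO replicate 2 the count was 3, among 8 of 13526 genes.

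A total of 77 segments passed the filter on low counts, and many passed through their control counts alone, so directions among them are not independent of the filter. Of these, 76 had a negative log2 fold change and the median was -2.69, beside 0.001 over all genes tested. All 3 KO libraries reached the filter's limit of 1.27 CPM for 38 of them, whose median was -2.50, with 4 that fell, or 27 with the block. The groups did not overlap for 64 of the 77, all lower in the KO, while 4.4% of all genes tested were lower and 4.09% higher in this way. Among the 27 segments left out, the best counted was Ighv1-20 with 415 counts.

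**Figure D1:**
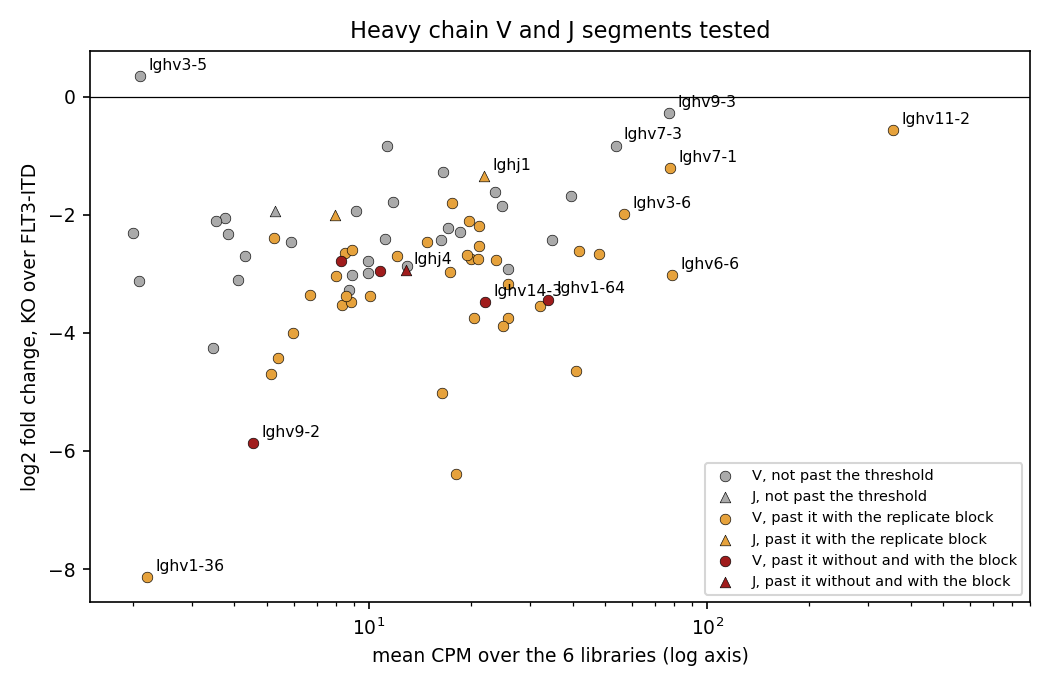
Log2 fold change (KO over FLT3-ITD) of each tested V (circles) and J (triangles) segment against its mean CPM over the 6 libraries on a log axis, coloured by whether it passed an adjusted p of 0.05. Segments past the threshold without the block lie between -2.78 and -5.87, whereas Ighv11-2, the best counted, lies at -0.56.

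Ighv14-3, a segment of family V14, had 40.2, 35.99 and 45.3 CPM in the control and 3.65, 1.97 and 5.31 CPM in the KO. Every KO library lay far below every control library, and its change on the log2 scale, -3.48 ± 0.30 (SE), had the smallest adjusted p of the segments, 0.0188 in edgeR. Ighv1-64, of family V1, had 70.0, 42.7 and 73.4 CPM in the control and 6.14, 3.42 and 7.68 in the KO (log2 fold change -3.44 ± 0.33, SE; adjusted p 0.0243 in edgeR). Here too the groups were well apart. Ighv9-2 went from 111, 55 and 71 counts in the control to 0, 1 and 2 in the KO libraries. Summed per group and scaled to the totals, control exceeded KO 65.2 times, with a 95% interval for counting error from 22.0 to 319 (adjusted p 0.0243 in edgeR). The calls of Ighv14-3, Ighv1-64 and Ighv9-2 were lost without control replicate 1 or 3 (adjusted p 0.0825 and 0.115 in edgeR). Without KO replicate 2 those of Ighv9-2 (0.0891) and Ighv1-64 (0.0504) were lost, and in limma-voom that of Ighv1-64 (0.0669). The log2 fold changes in these fits lay between -5.89 and -3.15.

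Ighv1-5 had 16.6, 20.5 and 20.0 CPM in the control and 3.21, 1.18 and 2.93 in the KO (log2 fold change -2.96 ± 0.33, SE; adjusted p 0.0339 in edgeR). Ighv1-58 had 9.85, 12.2 and 21.3 CPM in the control and 2.19, 2.10 and 1.96 in the KO (-2.78 ± 0.34, SE; adjusted p 0.0426 in edgeR). The KO libraries were close to one another for Ighv1-58, and the control libraries for Ighv1-5. The call of Ighv1-58 was lost in each fit that left out 1 library, with adjusted p between 0.0825 and 0.144 in edgeR and log2 fold changes between -2.98 and -2.39. That of Ighv1-5 was lost without any of the 3 control libraries or KO replicate 3, with adjusted p between 0.0629 and 0.187 and log2 fold changes between -3.10 and -2.91.

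The largest falls in fold were of segments almost absent from the KO. Ighv1-36 had 47, 18 and 50 control counts and 0 in each KO library, at least 31.6-fold lower against a floor of 3 counts over the group. Its adjusted p in edgeR was 0.140, and 0.0167 with the block. Ighv1-49 went from 473, 124 and 350 counts to 0, 1 and 8 (log2 fold change -6.39 ± 0.83, SE; adjusted p 0.0519, and 9.0e-04 with the block). Ighv5-6 went from 264, 259 and 308 counts to 0, 3 and 18 (-5.02 ± 0.66, SE; 0.0519, and 0.00395 with the block), and Ighv3-1 from 111, 52 and 97 to 0, 0 and 8 (-4.69 ± 0.85, SE; 0.162, and 0.0159 with the block). None of the 4 overlapped between groups. Of the 27 segments outside the test, Ighv15-2, the only member of its family, had 59, 10 and 132 control counts and 0 in each KO library, at least 55.3-fold lower by the same floor, and Ighv2-6-8 and Ighv14-1 were at least 16.5-fold and 16.2-fold lower.

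The groups overlapped in CPM for 4 of the 6 best counted segments. Ighv11-2 had the largest share of heavy V counts in all 6 libraries, and its level per length was 1201 ± 485 FPKM in the control and 814 ± 414 in the KO (SD, n = 3). In CPM it was at 353, 300 and 619 in the control and at 224, 183 and 454 in the KO. The groups overlapped, since KO replicate 3 lay above control replicates 1 and 2, yet each KO library lay below the control library of its number. It had a log2 fold change of -0.56 ± 0.39 (SE), not past the threshold (adjusted p 0.9996 in edgeR), and with the replicate block it fell by 0.60 ± 0.08 (SE; adjusted p 0.0174). Ighv11-1, its near copy, had only 9, 2 and 26 counts in the control and 4, 5 and 7 in the KO.

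Ighv9-3 had 95.6, 63.5 and 94.6 CPM in the control and 49.1, 26.2 and 135 CPM in the KO. KO replicate 3 was the highest of all 6 libraries while the other KO libraries lay below every control library. Its log2 fold change of -0.28 ± 0.53 (SE) did not pass (adjusted p 0.9996 in edgeR), and it became 0.11 without KO replicate 2. Ighv7-3 (68.5, 51.4 and 85.8 CPM in the control, 34.6, 8.42 and 72.9 in the KO) had -0.83 ± 0.62 (SE) and overlapped likewise. Ighv7-1, of the same family, had 92.0, 73.1 and 161 CPM in the control and 24.3, 26.05 and 91.2 in the KO. Only KO replicate 3 reached the control range, and its change of -1.21 ± 0.53 on the log2 scale (SE, adjusted p 0.9996 in edgeR) passed with the block (-1.36, adjusted p 0.0200).

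For Ighv6-6 and Ighv3-6, the other two of the 6 best counted, the groups were apart. Ighv6-6, the second most counted segment of each control library, had 152, 94.7 and 175 CPM there and 17.1, 8.16 and 26.5 in the KO (log2 fold change -3.02 ± 0.42, SE; adjusted p 0.0678 in edgeR, 2.7e-04 with the block). Ighv3-6 had 97.1, 78.0 and 96.2 CPM in the control and 19.4, 9.998 and 39.1 in the KO (-1.99 ± 0.42, SE; 0.262, and 0.0159 with the block). In every KO library the second rank had passed to Ighv9-3.

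**Figure D2:**
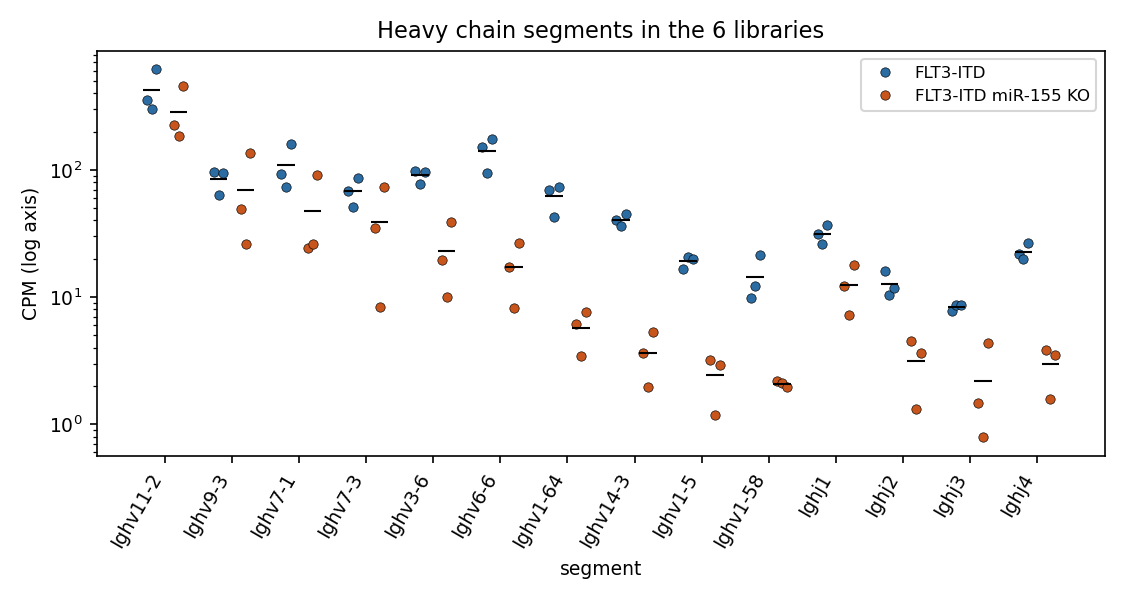
CPM on a log axis of the 6 best counted V segments, 4 V segments that fell and the 4 J segments, with 1 point per library and a bar at each group mean. The groups overlap for Ighv11-2, Ighv9-3, Ighv7-1 and Ighv7-3 and are apart for the others, for example 35.99 to 45.3 CPM against 1.97 to 5.31 CPM for Ighv14-3.

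A mean higher in the KO was found for 5 segments. Ighv3-5, the only tested segment with a positive log2 fold change (0.35 ± 1.43, SE; adjusted p 0.9996 in edgeR), had 25, 1 and 22 counts in the control and 0, 0 and 51 in the KO. All its KO counts came from replicate 3, without which the value was -6.91, and it was -0.07 with the block. Ighv12-3 had 8, 4 and 38 counts in the control and 4, 3 and 56 in the KO, so replicate 3 held most of it in both groups. Ighv1-37 (4, 4 and 5 against 0, 0 and 15 counts) was likewise seen in the KO only in replicate 3, and Ighv8-13 had 2 counts in each group. The D segment Ighd1-1 had 2 counts, both in KO replicate 3. Apart from Ighv3-5, these segments did not pass the filter on low counts.

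The make-up of the heavy V transcripts also differed between the groups. Ighv11-2 took 12.4%, 14.9% and 18.6% of the heavy V counts in the control and 35.7%, 49.8% and 35.2% in the KO. The widest exact binomial 95% interval of these shares, that of KO replicate 2 with 2799 V counts, ran from 47.9% to 51.6% and covers counting error only. All 3 KO shares lay above all 3 control shares. Ighv9-3 went from 3.37%, 3.16% and 2.84% to 7.83%, 7.11% and 10.4%, also without overlap, and Ighv7-1 from 3.24%, 3.64% and 4.83% to 3.87%, 7.07% and 7.06%, with overlap. A share can be larger while the level is not: among these 3 segments only Ighv9-3 in KO replicate 3 lay above the control range in CPM. Without Ighv11-2 the heavy V level was 2300 ± 525 CPM in the control and 475 ± 332 CPM in the KO (SD, n = 3), a ratio of 4.84 in place of 3.57.

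By family, V1, the largest with 47 segments, went from 38.1% ± 3.37 of the heavy V counts in the control to 18.6% ± 3.64 in the KO (SD, n = 3). Its level was 1024 ± 183 CPM in the control and 145 ± 93.4 CPM in the KO, and the groups did not overlap. Of its 37 tested segments 3 fell, or 20 with the block, against 0.144% and 1.04% of all genes. V11 went from 15.4% ± 3.14 to 40.3% ± 8.32 and became the largest family of each KO library. V7 went from 6.95% ± 0.556 to 11.3% ± 2.47 and V9 from 3.96% ± 0.452 to 8.80% ± 1.77. For V11, V7 and V9 the shares of the groups were apart, whereas their CPM overlapped, with ratios of control to KO of 1.48, 2.04 and 1.47.

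The remaining larger families took smaller shares in the KO. V5 went from 8.33% ± 1.98 to 4.90% ± 1.35, V6 from 8.04% ± 1.03 to 4.10% ± 0.658 and V2 from 6.15% ± 1.11 to 3.84% ± 0.114 (SD, n = 3). V14 took 2.59%, 2.85% and 2.87% in the control and 0.932%, 0.786% and 0.984% in the KO, a ratio of 10.5 in CPM. V3 took 4.58% ± 0.358 and 3.66% ± 0.385. In each of these 5 families the groups were apart in share and in CPM. V10 and V4 shares overlapped.

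Since shares add up to 100%, a larger share of Ighv11-2 lowers all others, so the families were also compared without it. V7 then took 8.22% ± 0.903 in the control and 18.9% ± 2.71 in the KO, and V9 4.67% ± 0.365 and 14.7% ± 1.92 (SD, n = 3). V1 took 44.9% ± 2.79 and 31.0% ± 3.09. These groups stayed apart, as did V6 (9.51% ± 1.29 and 6.93% ± 1.19) and V14 (3.28% ± 0.295 and 1.51% ± 0.0572). V5 and V2 overlapped, and V3 was now higher in the KO (5.40% ± 0.288 and 6.14% ± 0.227).

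Family members did not move alike. In V9 the log2 fold changes ran from -5.87 for Ighv9-2 to -0.28 for Ighv9-3, although their coding sequences are 94.3% identical. In V3 they ran from -4.69 for Ighv3-1 to 0.35 for Ighv3-5. V7 was narrower, from -1.21 to -0.83 over 3 tested segments, and V14 lay between -3.48 and -3.03.

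**Figure D3:**
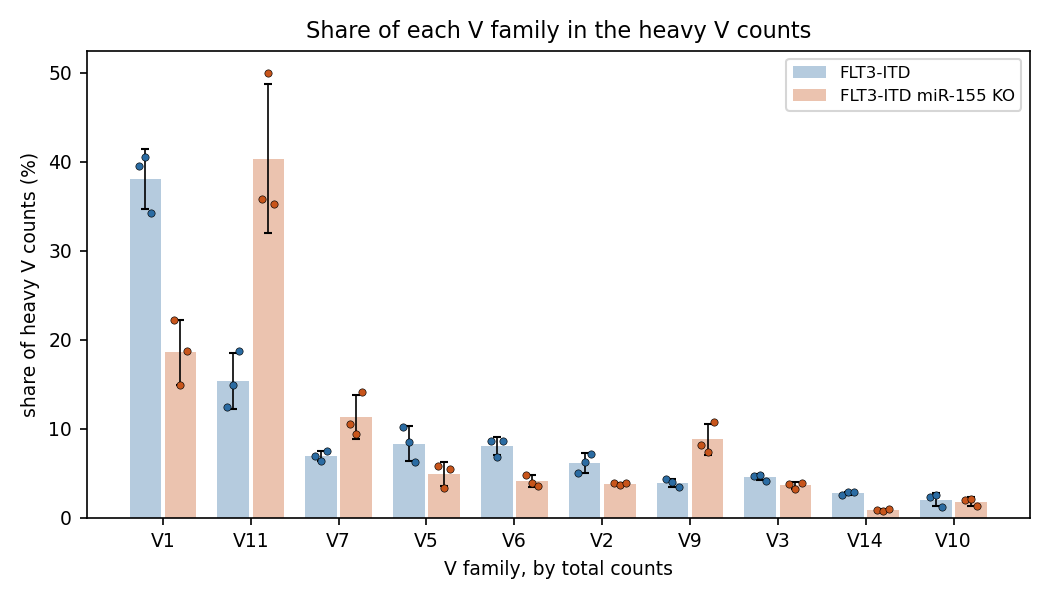
Share of the heavy V counts taken by the 10 V families with the most counts, as group means (bars), SD (error bars, n = 3) and single libraries (points). V11 takes 15.4% in the control and 40.3% in the KO, and V1 38.1% and 18.6%, while V10 overlaps between the groups.

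Fewer segments carried the KO transcripts. Control libraries held counts for 93, 91 and 96 of the 99 V segments and KO libraries for 74, 69 and 83. Among 2799 V counts, the total of the shallowest library, the expected number of segments was 84.3, 81.2 and 82.8 in the control and 71.6, 69.0 and 78.0 in the KO. At this equal number of counts the groups did not overlap, and their means were 82.8 and 72.9 segments. The inverse Simpson number, which counts segments as if all had equal shares, was 28.9, 25.8 and 18.9 in the control and 6.88, 3.82 and 6.76 in the KO. The 10 largest segments took 43.1% to 50.3% of the V counts in the control and 68.5% to 77.7% in the KO. The expected number, the inverse Simpson number and this share all include Ighv11-2, which took 35.2% to 49.8% of the KO V counts. A share of that size by itself lowers both numbers and raises the share of the 10 largest. None was computed without Ighv11-2, so whether the other segments were also less even was not tested.

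Order among the segments was largely shared. Spearman's rho of the shares over the 99 V segments lay between 0.793 and 0.867 for pairs of control libraries, between 0.753 and 0.837 for pairs of KO libraries and between 0.737 and 0.831 for pairs across groups. These describe 6 libraries that share the segments' lengths and the annotation. Some control segments sat mostly in 1 library. Of 72 V segments with at least 100 control counts, 4 had over 75% of their summed control CPM in a single library: Ighv1-20 (17, 387 and 8 counts), Ighv1-77 (17, 16 and 268), Ighv7-4 (331, 35 and 32) and Ighv9-1 (131, 6 and 28). None of the 30 segments with at least 100 KO counts passed that limit, and the nearest was Ighv5-9 with 41, 12 and 155. These segments were named after their values were seen.

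J segments were counted at far lower numbers than V segments, 83 to 721 per library, and the printed sequences are only 48 to 54 bases long. Ighj4 fell from 204, 171 and 216 counts in the control to 26, 12 and 25 in the KO (log2 fold change -2.94 ± 0.32, SE; adjusted p 0.0339 in edgeR). Its call was lost in the same 4 fits as that of Ighv1-5, with adjusted p between 0.0574 and 0.173 in edgeR and log2 fold changes between -3.06 and -2.81. Ighj1 had 293, 225 and 300 counts in the control and 83, 55 and 127 in the KO (-1.34 ± 0.31, SE; adjusted p 0.346 in edgeR, 0.0116 with the block). Ighj4 moved further than Ighj1, and for both the groups were apart in CPM. Ighj2 (-2.01 ± 0.43, SE; adjusted p 0.269, and 0.0158 with the block) and Ighj3 (-1.93 ± 0.51, SE; 0.513, and 0.0928 with the block) lay between them.

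Among J counts, Ighj1 took 40.6%, 40.3% and 44.0% in the control and 55.3%, 66.3% and 60.8% in the KO, without overlap. Ighj4 took 28.3%, 30.6% and 31.7% in the control and 17.3%, 14.5% and 11.96% in the KO, also without overlap. The shares of Ighj2 and Ighj3 overlapped. The J segment favoured in receptors of family V11 thus took a larger share in the libraries where V11 did, and no value here ties a J to a V segment within 1 transcript.

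Segments were lower all along the locus. The 73 tested V segments with a position span chr12:113588267-116000461. Of 3 equal parts, the one nearest the J segments had a median log2 fold change of -2.39 (25 segments), the middle one -2.74 (24 segments) and the farthest -2.77 (24 segments). Spearman's rho of order and log2 fold change was -0.18 over these 73 segments, which share libraries and sequence. The nearest part, which holds Ighv11-2, Ighv9-3 and Ighv7-1, took 41.1% to 47.9% of the V counts in the control and 64.4% to 74.96% in the KO. The farthest part, made up of V1 and V8 segments, took 20.5% to 25.7% and 8.50% to 14.2%. Ighv11-2 alone took 12.4% to 18.6% of the V counts in the control and 35.2% to 49.8% in the KO. Its larger share raises that of the nearest part and lowers those of the others. The parts were not compared without it.

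**Figure D4:**
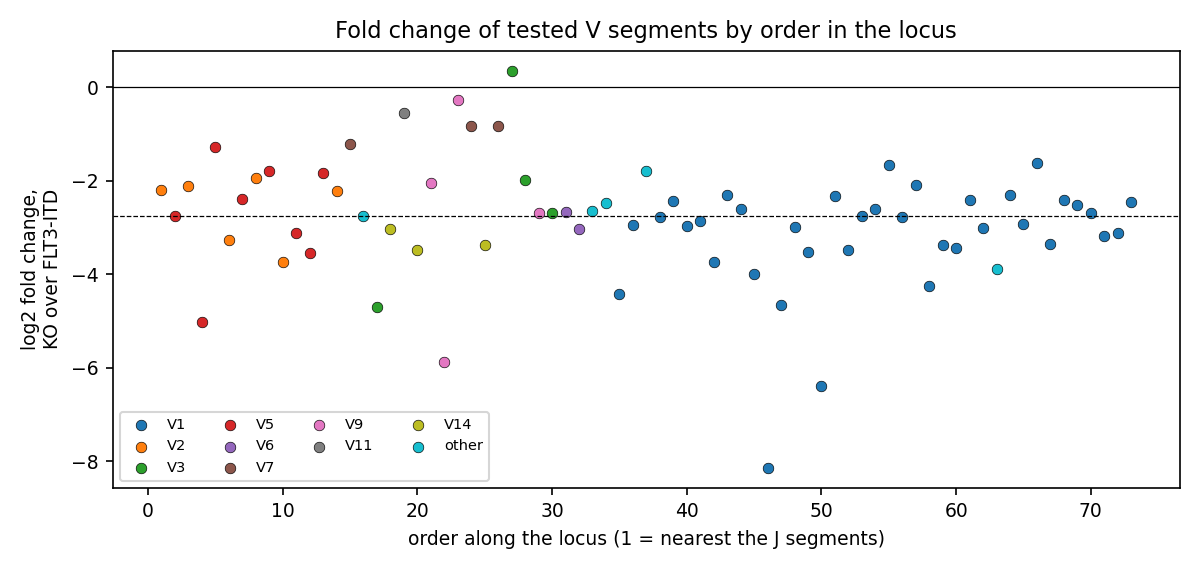
Log2 fold change (KO over FLT3-ITD) of the 73 tested V segments in their order along the locus from the J segments outward, coloured by family, with the median as a dashed line. The segments nearest 0 (Ighv3-5, Ighv9-3, Ighv11-2, Ighv7-3 and Ighv7-4) lie close together in the order, among others such as Ighv9-2 at -5.87.

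The constant genes, to which the V exons are spliced, differed in the same libraries. Ighm took 37.8%, 34.6% and 48.6% of heavy constant counts in the control and 71.8%, 84.8% and 74.5% in the KO, and the Ighg genes together 32.2% to 43.4% and 4.64% to 9.56%. The library with the largest Ighm share, KO replicate 2, also had the largest Ighv11-2 share. For every 100 heavy constant counts there were 13.5 to 14.8 V counts in the control and 11.6 to 13.4 in the KO, so the groups were apart in this ratio too, by far less than in V counts alone. Of 6 constant genes tested, Ighg1 and Ighg2c fell, or 5 fell with the block, against 0.144% and 1.04% of all genes.

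**Figure D5:**
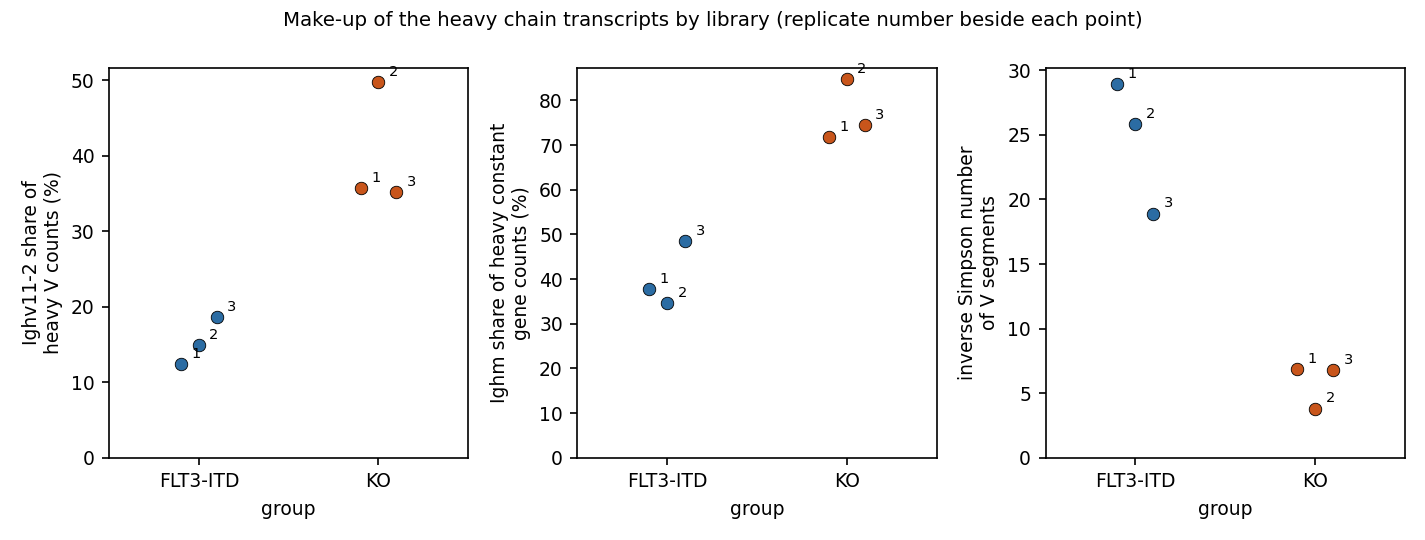
Share of Ighv11-2 in the heavy V counts, share of Ighm in the heavy constant counts (both in %) and inverse Simpson number of V segments, with 1 point per library labelled by replicate number. In all 3 panels the groups are apart, at 12.4% to 18.6% against 35.2% to 49.8% for Ighv11-2. The inverse Simpson number includes Ighv11-2 and is lowered by its large share, so the panels of these measures are not separate results.

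Of 13 tested V(D)J recombination genes, 0 rose and 0 fell with or without the block, and Nhej1, an end-joining factor (0.43), and Poll, a repair polymerase (-0.17, log2 fold change), had the smallest p. Dntt, which adds bases at the junctions, had 164 to 351 CPM in the control and 179 to 306 in the KO, whereas Rag1, a subunit of the recombinase, had 2 to 12 counts per library. Of 6 tested class switching and hypermutation genes, 0 rose and 0 fell, and Apobec3, a cytidine deaminase, had a log2 fold change of 0.16. Of 10 tested regulators of the locus, 0 passed, and with the block 2 fell, against 1.04% of all genes. The first was Irf4, a factor of plasma cell formation (-1.14 ± 0.09, SE, with an adjusted p of 0.00217 and, if unblocked, 0.585 in edgeR). The other was Pou2af1, the octamer coactivator (-1.43 ± 0.17, SE, with 0.0115 and, if unblocked, 0.693 in edgeR). Of 5 tested genes of the receptor signal, 0 passed, and the receptor chains Cd79a (-1.63, adjusted p 0.473 in edgeR) and Cd79b (-0.52) had the smallest p. The surrogate light chain genes Vpreb1, Vpreb3 and Igll1 had 0 to 8 counts per library and were not tested.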

How the data were processed

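Total RNA of 6 pools was sequenced, and the authors deposited whole-number counts per gene and FPKM values (counts scaled to gene length and library total) per library, per the file headers. The authors also deposited a log2 fold change and an adjusted p-value per gene, per the file headers. Among the 87 segments with an adjusted p in the authors' deposited table, 39 had one under 0.05, all lower in the KO, against 0.597% of all genes lower. The submitters' processing notes name Novoalign 2.08.01, the build mm10 and DESeq2 1.10.1. How reads were assigned to genes, with which annotation and whether by strand, is not given in the sources used here, so shared reads of near-identical segments could have been split or dropped. Of 97 V segments with a sequence in GENCODE M21, 46 were at least 95% identical to another.

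Counts were tested with edgeR 4.0.16 in R 4.3.3 (TMM, filterByExpr with minimum count 10 and minimum total 15, quasi-likelihood F test on the group, two-sided, Benjamini-Hochberg over all genes tested, threshold 0.05). SE was derived from the F statistic. The fit was also run on simulated counts that had the same spread for every gene and no replicate effect. That run does not measure how the fit does for segments with few counts or a wider spread. CPM are counts over the library total. Sums and shares over segments were given no test. Fold changes are KO over FLT3-ITD. Alternatives were size factors, filters, DESeq2 1.42.0, limma-voom 3.58.1, library sizes, a threshold of 0.1, a replicate block and left-out libraries. The titles give equal replicate numbers in both groups, and deviations from group means across all genes correlated by 0.573, 0.526 and 0.219 for equal numbers (0.106, 0.008 and -0.021 over the heavy segments alone). Every pair of equal number lay above the limit of 0.1 over all genes, so the numbers were treated as pairs. Of the unequal pairs, control 3 with KO 2 also did (0.133), and the others lay between -0.512 and 0.044. Over the heavy segments alone unequal pairs ran from -0.204 to 0.182, so equal numbers did not stand out there. What libraries of 1 number have in common is not stated.

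Segments were matched by identifier: 102 of 104 matched M21, and Ighv13-2 and Ighv1-14 are named Ighv6-7 and Ighv1-16 there. Gm16710, named Ighv1-74 in M21, fell outside the rule on symbols. The members and lists were chosen with earlier results of these data known. Segments named are those past the threshold, the 6 of highest mean CPM, the largest in each library, the 5 largest falls, any with a positive log2 fold change, and all D and J segments with counts. The 6 families with the most counts were described, and for lists of other genes those past the threshold and the 2 of smallest p. Others were named after their values were seen. Results for some listed genes are not reported here.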

Additional observations from a re-analysis of the deposited data

How the results depend on the processing

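The count of 6 segments that fell became 46 with the replicate block, 52 with DESeq2, 42 without a low-count filter and 10 with adjusted p under 0.1. Of all genes, 0.144% were lower in the main fit, and 1.04% with the block, 0.794% in DESeq2 and 0.414% without the filter. The share of all genes at 0.1 was not computed. The count lay between 0 and 8 when 1 library was left out, with 0 to 0.177% of all genes lower. Leaving out both libraries of number 1, 2 or 3, chosen after seeing the data, gave 12, 4 and 2. There 0.172%, 0.0756% and 0.0449% of all genes were lower. The causes were not tested, beyond fewer samples in the fits that left libraries out. RLE scaling gave 6, as did a stricter filter and totals that leave out immunoglobulin genes, and limma-voom gave 5. In these fits 0.113% to 0.156% of all genes were lower. Under any of the settings named so far, 0 segments rose. The difference in summed V level (mean log2 CPM, KO minus control, -1.996) moved by less than 1 SD under every alternative run, between -2.47 and -1.57 when 1 library was left out. Without Ighv11-2 the differences in share were -13.9 percentage points for V1, 0.149 for V11, 10.7 for V7, -2.58 for V6 and -0.806 for V2, a change fixed by the removal itself. Left-out libraries gave 20.2 to 27.5 for V11 and -21.4 to -17.6 for V1. The replicate block left the differences in share as they were, which the arithmetic fixes. The mean of the differences within equal numbers is the difference of the group means. The number of segments differed by -18.7 on the inverse Simpson scale, with Ighv11-2 included. For 20 named segments the alternatives gave 317 values, of which 246 had the direction and call of the main value, 31 gained a call, 34 lost one and 6 reversed. When 1 library was left out, Ighv9-3 ranged from -1.15 to 0.113 and Ighv3-5 from -6.91 to 0.941. The reversed values were 0.113 for Ighv9-3 without KO replicate 2 and 0.0123 without both libraries of number 1, and for Ighv3-5 -1.74 in limma-voom, -0.0698 with the replicate block, -0.206 without FLT3-ITD replicate 2 and -6.91 without KO replicate 3. The alternative without pseudogenes was not run, since 0 of the matched segments are annotated as such. Adding Gm16710, and taking families from M21, were chosen after seeing the data and changed no count or share by more than the spread.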

Other observations

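Igkv14-126, a kappa V segment known as a light chain partner of V11 in phosphatidylcholine receptors, was looked at after the heavy chain values were seen. It ranked first of 98 kappa V segments in all 6 libraries and took 23.6%, 27.2% and 32.4% of kappa V counts in the control and 55.4%, 67.5% and 53.3% in the KO (replicates 1, 2 and 3). The groups did not overlap in share, and KO replicate 2 was highest, as it was for Ighv11-2. Its log2 fold change was -0.73 ± 0.36 (SE; adjusted p 0.9996 in edgeR, 0.00933 with the replicate block), near that of Ighv11-2. Igkv4-91, the kappa partner known for V12, took 0.531%, 0.427% and 1.74% in the control and 0.603%, 0.177% and 1.38% in the KO, with overlap. Its share was highest in replicate 3 of both groups, as for Ighv12-3. Its log2 fold change of -1.83 did not pass (adjusted p 0.9996 in edgeR), while with the replicate block it fell by 1.98 (adjusted p 0.0158).

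KO replicate 3, the highest of the KO libraries in summed heavy V level, also stood apart in Ighg3, an IgG constant gene. It had 1765 counts there, against 78 and 18 in KO replicates 1 and 2 and 336, 261 and 567 in the control replicates.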
